A study of Mus musculus with 24 samples.

Results

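The values below describe 10 imprinted genes, H19, Kcnq1ot1, Airn, Meg3, Peg3, Snrpn, Plagl1, Mest, Peg10 and Gnas, by the 1000000 bp bin that holds the midpoint of each gene in mouse build mm10. Each gene fell in a bin of its own, so the genes gave 10 of the 2645 bins of chromosomes 1 to 19 and X. Reads had been given, where possible, to genome1 or genome2, the 2 parental genomes of the hybrid cells. The measure was the log2 ratio of genome1 to genome2 reads in a bin, taken in each immunoprecipitate and in input DNA, with reads of both genomes together as a second view.

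The study measured the histone variant H2AX and its phosphorylated form gH2AX, a mark of chromatin near DNA breaks, by ChIP-seq with matching input DNA. The cells were female C57BL6/CAST hybrid mouse cells named TTF in the labels. They were wild type (WT), lacked the deacylase SIRT7 (SIRT7-KO, here KO), or were clones: KO clones c22 and c9, these clones with SIRT7-WT added (KO+S7WT), and clones c5 and c7 of a genotype called SIRT7-HY, which the labels do not spell out. All 24 samples, the WT included, are labelled as having received 5 Gy of X-rays and 30 minutes of recovery. By the labels, no comparison here is against unirradiated cells. Some count columns of WT and KO cells are named NT, which the labels do not explain. Whether a group mixes irradiated and unirradiated cells therefore cannot be told here. The labels give 2 samples per group. Which of C57BL6 and CAST is genome1, and which strain was the mother, is not given in the sources used here, so no value below can be read as maternal or paternal. Parental reads were analysed in WT cells, in gH2AX, H2AX and input with 2 replicates each. Those of KO cells and clones were not used here. Clones were compared through H2AX in place of input.

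At an imprinted gene, the copy from one parent is expressed and the other is silenced, and the choice is set by DNA methylation laid down in the germ line. The marked control regions are short, and imprinted genes lie in clusters in which a long non-coding RNA often silences its neighbours in cis. The 2 copies also differ in histone marks and, at several clusters, in replication timing.

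Among the non-coding RNA genes, H19 (chr7:142575530-142578146), expressed from the maternal copy, shared its bin with Igf2, a growth factor gene expressed from the paternal copy, and with Ascl2. Kcnq1ot1 (chr7:143213111-143296547), a paternally expressed antisense RNA, lay in the next bin with Cdkn1c and Phlda2, 2 of the genes it silences. Airn (chr17:12741311-12859884), a paternal RNA that overlaps and silences the receptor gene Igf2r, shared its bin with Igf2r. Meg3 (chr12:109540996-109571729), a maternal RNA, shared its bin with Dlk1, Rian and Mirg. Among the protein-coding genes, Peg3 (chr7:6703892-6730462) and Plagl1 (chr10:13090832-13131694) encode zinc finger proteins expressed from the paternal copy. Snrpn (chr7:59982495-60450177) encodes a splicing protein and is the paternally expressed gene at the Prader-Willi imprinting centre. Mest (chr6:30733506-30748466) encodes a hydrolase-like protein and Peg10 (chr6:4747306-4760517) a protein derived from a retrotransposon, both paternally expressed. Gnas (chr2:174284320-174346744) encodes the stimulatory G protein alpha subunit and gives rise to maternal, paternal and biallelic transcripts. Coordinates are those of RefSeq on GRCm38.p6, the mm10 assembly. A bin held between 9 and 95 annotated genes, so a bin value is not the value of the imprinted gene or its control region.

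WT libraries held 88317834 to 248337642 reads, of which 49.8% to 56.6% had been given to one parental genome. Member bins held between 4558 and 56026 reads per genome and library, for a counting error of 0.0095 to 0.029 on the log2 ratio.

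The parental ratios of the 10 bins were far from 0 in most cases, already so in input DNA, and close to the ratio of the whole chromosome. In input, 8 of the 10 bins held more genome1 than genome2 reads, by over 0.1 on the log2 scale. Over the 20 chromosomes, the median input ratio ran from -1.17 to 1.30. Leaving Snrpn aside, the other 9 bins lay between -0.048 and 0.14 from the median of their own chromosome. Seen without input, the bins of chromosomes 6 and 7 would have looked strongly unequal between parents, and the input was unequal by as much.

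Mest and Peg10 on chromosome 6 had the highest ratios. Of the parental reads in the Mest bin, 71.0% and 71.6% came from genome1 in the 2 input replicates. The share was 71.1% and 70.9% in gH2AX, and 72.1% and 72.0% in H2AX. The Peg10 bin gave 71.6% and 71.3% in input and 70.8% and 71.0% in gH2AX. The chromosome median of the input log2 ratio was 1.30, against 1.31 for Mest and 1.32 for Peg10, so neither bin stood out from its chromosome.

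H19, Kcnq1ot1 and Peg3, on chromosome 7, had input log2 ratios of 0.99, 0.98 and 0.96, above a chromosome median of 0.86. H19 and Kcnq1ot1 are neighbours near the distal end, and the bins around them lay at 0.98 to 1.03. The Airn bin was at 0.44 against a chromosome 17 median of 0.42, and the Plagl1 bin at 0.56 against 0.54 on chromosome 10. The Gnas bin was at 0.52 against 0.57 on chromosome 2, where the interquartile range of the bins spread from 0.22 to 2.60. Meg3 was the nearest of the 10 to equal reads of both genomes, with 49.4% and 50.2% from genome1 in input. Its chromosome had a median log2 ratio of -0.0079. Snrpn, described below, held 47.8% and 47.5% from genome1 in input.

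**Figure D1:**
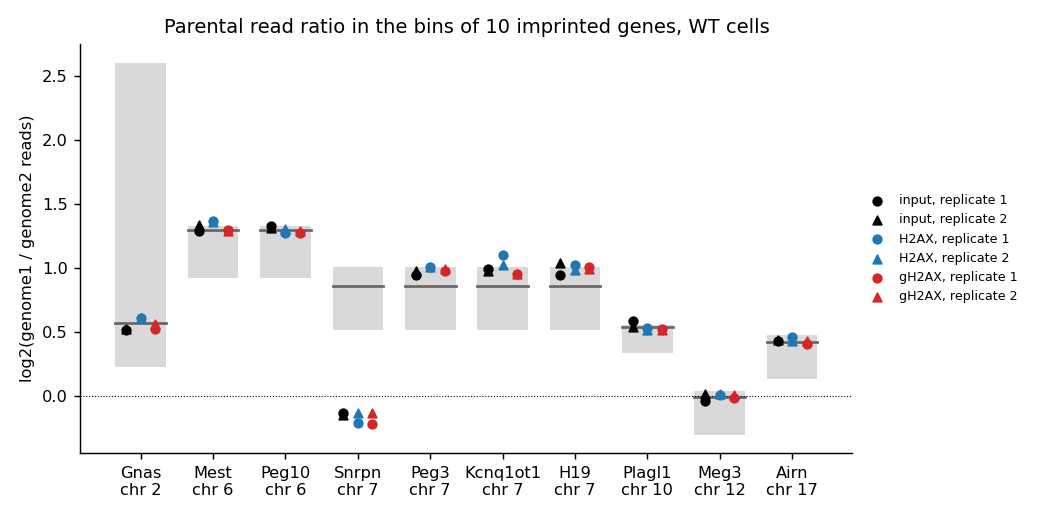
Log2 ratio of genome1 to genome2 reads (vertical axis) in the bins of 10 imprinted genes in WT cells, by chromosome, for input (black), H2AX (blue) and gH2AX (red); circles are replicate 1 and triangles replicate 2, grey boxes span the interquartile range of the chromosome's bins in input (mean of the replicates) and grey lines mark its median. The 3 assays lie close together in each bin, and the Snrpn bin, at -0.14 in input, lies apart from the chromosome 7 median of 0.86.

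Snrpn was the exception. Its input ratio was -0.13 and -0.14 in the 2 replicates, 0.99 below the median of chromosome 7, at rank 10 from the lowest of 143 bins. The 3 bins on its left stood at 0.57, 0.22 and 0.62 in order, and the 3 on its right at 0.89, 0.87 and 0.57. The bin was thus lower than each of its 6 neighbours. Its genome1 reads were 0.75 and 0.70 (log2) below the genome1 median of the chromosome in replicates 1 and 2, and its genome2 reads were 0.12 and 0.20 above the genome2 median. Reads of all kinds were 0.27 and 0.18 below the median, and 54.2% and 57.8% of them had been given to a parental genome, against chromosome medians of 58.7% and 63.2%. The departure therefore lay mainly in low genome1 reads and was present without any immunoprecipitation. Differences in DNA copies and in the assignment of reads to genomes cannot be told apart here.

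Relative to input, gH2AX passed the test for a difference between the parental genomes at none of the 10 bins. With edgeR's quasi-likelihood test over 2577 bins and Benjamini-Hochberg adjustment, 64 bins (2.48%) passed an adjusted p of 0.05, 36 with the higher genome1 share in gH2AX (1.4%) and 28 with the lower (1.09%). None of the 10 members was among them. At an unadjusted p of 0.05, 278 bins (10.8%) and 0 of the 10 members passed, and DESeq2 called 60 bins and 0 members. The fitted differences ran from -0.041 (Plagl1, SE 0.022) to 0.026 (Gnas, SE 0.024), with a lowest adjusted p of 0.534. Their median absolute size was 0.025, the same to this precision as over all bins, 0.025. With a TMM factor for each parental column, the split over all bins became 28 higher and 37 lower, again with no member. Without gH2AX replicate 1 or input replicate 2, the number of bins called was 33 or 37, and no member passed.

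The replicates show how small these differences were. H19 gave 0.062 in replicate 1 and -0.051 in replicate 2, opposite signs. Snrpn gave -0.092 and 0.013, again opposite. Plagl1 (-0.062 and -0.022) and Peg10 (-0.055 and -0.018) were below 0 in both, and Peg3 (0.030 and 0.017) was above 0 in both. In gH2AX, 6 of the 10 members had the same sign in both replicates, and in H2AX 7 did. This count was not taken over all bins, so it is not read as agreement or as the lack of it. The 10 members lay inside the central 95% of all bins in both assays and both replicates, a range that ran from -0.14 to 0.15 for gH2AX in replicate 1.

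For H2AX relative to input, 184 of 2577 bins passed (7.14%), 115 higher (4.46%) and 69 lower (2.68%) in genome1, and 1 of the 10 members did. At an unadjusted p of 0.05, 460 bins (17.9%) and 2 of the 10 members passed. Gnas gave 0.095 and 0.088 in the 2 replicates, with a fitted difference of 0.091 (SE 0.024, adjusted p 0.00716, edgeR). In reads, 60.4% came from genome1 in both H2AX replicates, against 58.9% and 59.0% in input, so both H2AX libraries lay above both input libraries. Over 8 alternatives, the adjusted p ran from 0.00114 to 0.108. The call was lost with a TMM factor for each parental column (0.064, adjusted p 0.108) and without H2AX replicate 1 (adjusted p 0.0617), input replicate 1 (0.0785) or input replicate 2 (0.0654), although the difference stayed at 0.088 to 0.095 in these last 3. Over all bins, those 3 left 91, 120 and 98 calls, and the factor for each column turned the split to 78 higher and 163 lower. The other members ran from -0.037 (Plagl1, SE 0.023) to 0.078 (Kcnq1ot1, SE 0.030).

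Kcnq1ot1 gave the other member call. In H2AX its parental ratio exceeded input by 0.11 in replicate 1 and 0.047 in replicate 2, and in gH2AX it was below input by -0.036 and -0.021. The shares of genome1 reads were 68.3% and 67.0% in H2AX and 66.0% in both gH2AX replicates, so the assays did not overlap. Relative to H2AX, gH2AX was lower in genome1 by -0.11 (SE 0.030, adjusted p 0.0209, edgeR), in a comparison where 110 of 2577 bins passed (4.27%), 35 higher (1.36%) and 75 lower (2.91%). Over 8 alternatives, the adjusted p ran from 0.00832 to 0.394. The call was lost without gH2AX replicate 1 (adjusted p 0.101), H2AX replicate 1 (-0.068, 0.394) or gH2AX replicate 2 (0.115), and with a TMM factor for each column (0.0729). Without H2AX replicate 1, 44 bins passed. Against input, the Kcnq1ot1 bin did not pass in H2AX (adjusted p 0.115), except without H2AX replicate 2 (0.12, adjusted p 0.0228). H19 in the adjoining bin was at -0.0016 (SE 0.032) for gH2AX relative to H2AX, the highest of the 10 members. Their median was -0.020, against -0.0055 over all bins. At an unadjusted p of 0.05, 3 of the 10 members and 382 bins (14.8%) passed in this comparison.

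**Figure D2:**
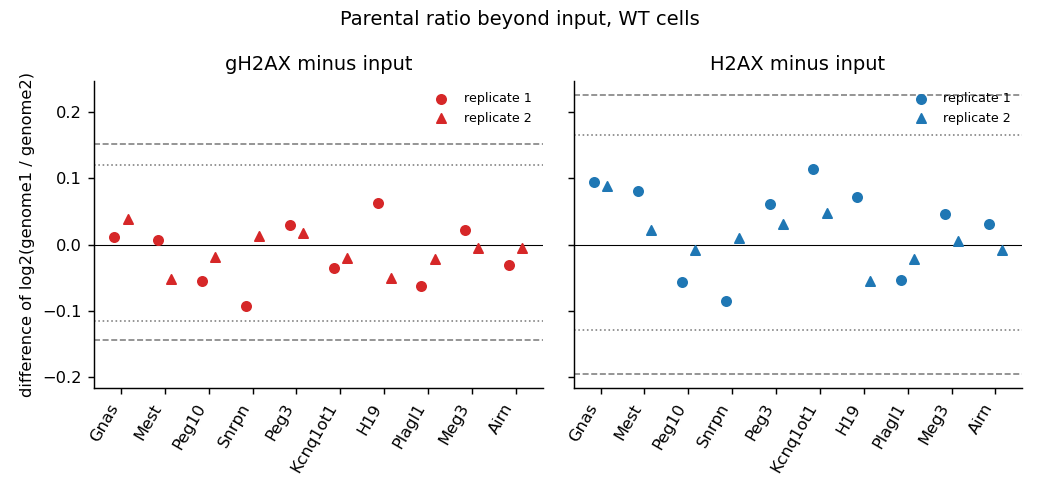
Difference between ChIP and input in log2(genome1 / genome2) (vertical axis) for gH2AX (left) and H2AX (right) in each member bin, WT cells; circles are replicate 1 and triangles replicate 2, and dashed (replicate 1) and dotted (replicate 2) lines bound the central 95% of 2577 bins. Each of the points lies inside its lines, and H19 and Snrpn change sign between replicates in both panels.

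Of 29 further imprinted genes, 13 lay in the member bins, and the rest filled 13 other bins, among them those of Ube3a, Ndn with Magel2 and Mkrn3, Grb10, Rasgrf1, Nnat and Zdbf2. In each of the 3 parental comparisons 0 of these 13 bins passed with edgeR, beside 2, 4 and 2 at an unadjusted p of 0.05 for gH2AX over input, H2AX over input and gH2AX over H2AX, where 10.8%, 17.9% and 14.8% of all bins were. Ube3a, the ubiquitin ligase gene in the bin before Snrpn, had the lowest gH2AX value, -0.14 (SE 0.058, adjusted p 0.305). Their median for gH2AX over input was -0.0012, against -0.00067 over all bins.

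With both genomes together, members differed between KO and WT cells, in gH2AX, in H2AX and in input DNA alike. These totals came from a table with 2 libraries per group, whose column names end in NT or Xray although each sample is labelled as irradiated. The names NT-named and Xray-named below mean these column names and nothing more. In gH2AX, 1 member rose in KO and 6 fell, in a comparison in which 60.1% of 2582 bins passed, 30.1% higher and 30.1% lower. In H2AX, again 1 rose and 6 fell (63.3% of bins passed, 30.6% higher and 32.6% lower). In input, 1 rose and 4 fell (57.5% of bins passed, 32.1% higher and 25.4% lower). The shares of members called were close to those of all bins, and within them falls outnumbered rises. In gH2AX, the chromosome median, given below, had the same sign as each member called. The split is therefore not read as a trait of the members.

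Plagl1 was the member that rose. Its bin held 499 and 501 CPM (reads scaled to the size of the library) in the 2 WT inputs and 644 and 646 in the 2 KO inputs. In gH2AX it held 501 and 507 in WT and 640 and 641 in KO. The groups did not overlap in either assay, and the log2 differences were 0.37 in input (SE 0.023), 0.39 in H2AX (SE 0.023) and 0.35 in gH2AX (SE 0.023), with edgeR adjusted p of 5.43e-06 or less in each. The median bin of chromosome 10 rose by somewhat more, 0.42, 0.40 and 0.39. In gH2AX the Plagl1 bin was at rank 14 from the lowest of the 128 bins of the chromosome.

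Mest and Peg10, on chromosome 6, fell. The Peg10 bin went from 375 and 379 CPM in WT input to 313 and 316 in KO, and the Mest bin from 354 and 363 to 299 and 304. In gH2AX, Mest held 374 and 397 in WT and 297 and 325 in KO. These groups did not overlap. The gH2AX differences were -0.31 for Mest (SE 0.042) and -0.27 for Peg10 (SE 0.023), beside a chromosome median of -0.26.

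The other falls were smaller. In gH2AX, Airn changed by -0.20 (SE 0.062, adjusted p 0.0187), Meg3 by -0.11 (SE 0.027, adjusted p 0.00596), Gnas by -0.097 (SE 0.031, adjusted p 0.0209) and Peg3 by -0.095 (SE 0.028, adjusted p 0.0133), all from edgeR. The medians of their chromosomes in gH2AX were -0.195 for Airn, -0.027 for Meg3, -0.040 for Gnas and -0.077 for Peg3. The Airn and Peg3 bins thus lay near their chromosomes. The Airn bin was at 484 and 547 CPM in WT libraries of gH2AX, against 421 and 477 in those of KO, and in input at 432 and 440 against 387 and 388. The groups did not overlap in either assay, but lay closer in gH2AX. The calls of Airn and Peg3 in gH2AX were lost without the NT-named KO library (-0.11 and -0.074) or the Xray-named WT library (-0.11 and -0.079). The Gnas call was lost without the Xray-named KO library (adjusted p 0.0889) or the NT-named WT library (0.0639), and without the latter H19 passed (-0.11, adjusted p 0.0436). In input, the calls of Airn and Peg3 were each lost without any 1 of the 4 libraries, with differences of -0.16 to -0.19 and -0.082 to -0.098. In H2AX, the Airn call was lost without any 1 of the 4 libraries, that of Gnas without the NT-named KO (-0.10) or Xray-named WT library (-0.046), that of Meg3 without the same 2 (-0.093 and -0.040), and that of Peg3 without the Xray-named WT library (-0.072). Fitted without the H2AX and input libraries, Airn, Meg3, Gnas and Peg3 did not pass in gH2AX (adjusted p 0.160, 0.179, 0.255 and 0.245). Plagl1, Mest and Peg10 passed in the 3 assays under every alternative run, each library left out included.

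H19, Kcnq1ot1 and Snrpn did not pass in any of the 3 assays in the fit without a replicate block. Snrpn had differences of 0.051 in gH2AX, 0.019 in H2AX and 0.052 in input (SE 0.039 in each). On chromosome 7, where the medians were -0.077, -0.075 and -0.036, this placed it at rank 141 from the lowest of 143 bins in gH2AX and H2AX and at rank 139 in input.

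**Figure D3:**
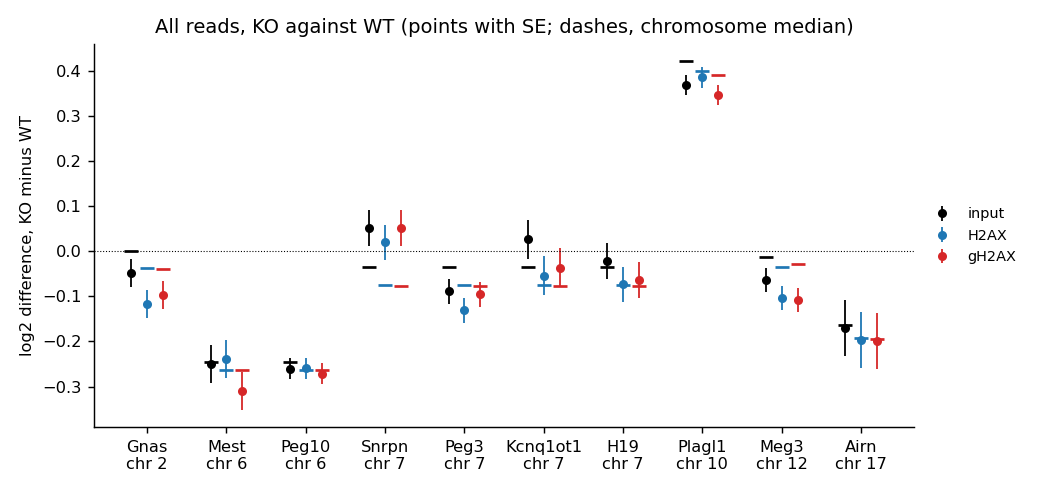
Log2 difference in all reads, KO minus WT (vertical axis), for each member bin in input (black), H2AX (blue) and gH2AX (red); points are edgeR estimates from 2 libraries per group with SE, and dashes mark the median of the chromosome in the same assay. Each SE rests on a spread that the fit shared between the 3 assays and both genotypes. In most bins the 3 assays move together and stay near their chromosome, with Plagl1 at 0.35 to 0.39 and Mest and Peg10 between -0.24 and -0.31.

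Relative to input, no member passed the test between KO and WT. For gH2AX, 0 of 10 members passed, in a comparison with 1 bin of 2582 called (0.0387%) and 29 at an unadjusted p of 0.05, none of them a member. DESeq2 called 6 bins, and edgeR with a replicate block (described below) called 346, with no member among them. For H2AX, 0 of 10 members and 0 bins passed (0%), with 128 bins and 0 members at an unadjusted p of 0.05 and 12 bins with DESeq2. The block gave 275 bins and no member. The gH2AX values of the members ran from -0.063 (Kcnq1ot1, SE 0.060) to -0.00078 (Snrpn, SE 0.056), with a median of -0.036 against -0.027 over all bins. The plain differences of the members were of one sign in gH2AX and input except at Kcnq1ot1 (-0.037 and 0.026). Those of Gnas, H19 and Meg3 were smaller in input (-0.048, -0.022 and -0.063) than in gH2AX (-0.097, -0.064 and -0.11). The falls of Airn, Mest, Peg3 and Peg10 were smaller in input too. Over all bins, the median of gH2AX relative to input was -0.0042 with autosomal totals and 0.0036 with DESeq2, so its offset below 0 depended on the scaling.

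Within one genotype, gH2AX over input did differ between the members. In WT, 7 bins were higher in gH2AX than in input and 2 were lower, where 69.9% of all bins passed, 34.6% higher and 35.3% lower. Among the higher ones were Kcnq1ot1 at 0.25 (SE 0.043), Airn at 0.24 (SE 0.062), H19 at 0.21 (SE 0.039) and Meg3 at 0.13 (SE 0.027). At these 4 bins H2AX over input was above 0 as well in the NT-named and Xray-named WT libraries. It was 0.22 and 0.30 at Kcnq1ot1, 0.17 and 0.21 at Airn, 0.15 and 0.22 at H19, and 0.068 and 0.14 at Meg3. Their gH2AX over H2AX ran from -0.027 to 0.13, both at Airn, and was not tested in WT. Gnas (0.15, SE 0.031), Peg3 (0.11, SE 0.028) and Mest (0.11, SE 0.042) were also higher. Snrpn was lower at -0.19 (SE 0.039) and Peg10 at -0.11 (SE 0.023), and Plagl1 did not pass (0.012, SE 0.023). The Mest call was lost with autosomal totals as library sizes (0.080, adjusted p 0.171), with the compared groups fitted alone (0.10, 0.0681) and without the Xray-named gH2AX library (0.078, adjusted p 0.169), the NT-named input (0.12, 0.0799) or the Xray-named input (0.087, 0.168). The bins called over the genome numbered 1805, and taking the autosomal total as library size moved their split from 893 higher and 912 lower to 645 and 1056.

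In KO, 6 members were higher and 2 were lower, where 61.5% of all bins passed, 25.3% higher and 36.3% lower. Snrpn was again lowest, at -0.19 (SE 0.039), and Airn highest, at 0.21 (SE 0.062), while Mest (0.046, SE 0.042) and Plagl1 (-0.011, SE 0.023) did not pass. The calls rested on few libraries. Without the Xray-named gH2AX library those of Airn (0.14), Snrpn (-0.12) and Peg10 (-0.095) were lost, without either input those of Airn, Peg3, Meg3 and Gnas were lost, and without the NT-named gH2AX library Mest passed (0.11). With the compared groups fitted alone, those of Meg3 (adjusted p 0.0510) and Peg10 (0.0661) were lost. Over all bins, 771, 941 and 715 calls were left without the Xray-named gH2AX, the NT-named input and the Xray-named input library, against 1589.

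Kcnq1ot1 shows the values behind this. Its gH2AX over input was 0.20 in the NT-named and 0.30 in the Xray-named WT library, and 0.13 and 0.24 in the KO ones. Snrpn gave -0.15 and -0.22 in WT and -0.13 and -0.25 in KO. The WT and KO values overlapped in 6 of the 10 bins, these 2 included, and not in the other 4, Gnas, Meg3, Peg10 and Plagl1. Over all 2582 bins they did not overlap in 461 (17.9%). For H2AX over input, Kcnq1ot1 gave 0.22 and 0.30 in WT and Snrpn -0.087 and -0.086. WT replicate 1 of the table of clones, which is not among the libraries above, gave a gH2AX over input of 0.40 for Kcnq1ot1, 0.41 for H19, 0.37 for Airn, -0.36 for Snrpn and -0.17 for Peg10. It had the same signs in these 5 bins, with larger values.

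In the clones, gH2AX passed the test at no member, whether SIRT7-WT was added to KO clones or the HY genotype was compared with them. In KO+S7WT against KO clones, 0 of 10 members passed with edgeR (1 of 2582 bins, 0.0387%), and 0 members and 23 bins had an unadjusted p under 0.05. In HY against KO clones, 0 of 10 passed (1 bin, 0.0387%), with 1 member and 273 bins at an unadjusted p of 0.05. DESeq2 called 1 and 133 bins and no member. Relative to H2AX, 0 members and 0 bins passed in either comparison (0%), with 0 members and 1 and 5 bins at an unadjusted p of 0.05 and 0 bins with DESeq2. SE of the members here were 0.12 to 0.16 for gH2AX, wider than the 0.023 to 0.062 for gH2AX between KO and WT. For gH2AX relative to H2AX they were 0.17 to 0.23, against 0.032 to 0.088 for gH2AX relative to input between KO and WT.

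Meg3 had the largest difference between HY and KO clones, 0.39 in gH2AX (SE 0.16, adjusted p 0.381), on a chromosome whose median was 0.28. Its bin held 551 and 378 CPM in the HY clones and 391 and 308 in the KO clones, and the groups overlapped. The difference was 0.11 without HY replicate 1, 0.62 without HY replicate 2, 0.53 without KO replicate 1 and 0.22 without KO replicate 2, with adjusted p from 0.146 to 0.872. Relative to H2AX its difference was -0.018 (SE 0.23).

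What did stand out in the clones was the ratio of gH2AX to H2AX itself, a comparison that was not tested. In the WT libraries of the same table, log2 gH2AX over H2AX lay close to 0 at Kcnq1ot1 (-0.051 and -0.027) and Snrpn (-0.041 and -0.069). In the 6 clone libraries, Kcnq1ot1 ran from -0.96 to -0.52 and Snrpn from 0.47 to 0.82. Airn, H19, Gnas, Mest, Meg3 and Peg3 were below 0 in the 6 clone libraries as well, Peg10 was above 0, and Plagl1 took both signs. The same spread was seen over the genome, where Kcnq1ot1 stood at percentiles 6.89 to 10.9 of all bins and Snrpn at percentiles 80.8 to 86.2. It was seen in KO, KO+S7WT and HY clones alike. At these 2 bins the clones stood further from WT in H2AX than in gH2AX. At Kcnq1ot1, H2AX held 551 to 690 CPM in the clones and 441 and 360 in WT, while gH2AX held 338 to 464 and 426 and 354. At Snrpn, H2AX held 132 to 157 in the clones and 198 and 243 in WT, while gH2AX held 199 to 255 and 192 and 232. Clones and WT replicates also differ as sets of libraries, so the clone state and the set cannot be told apart.

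**Figure D4:**
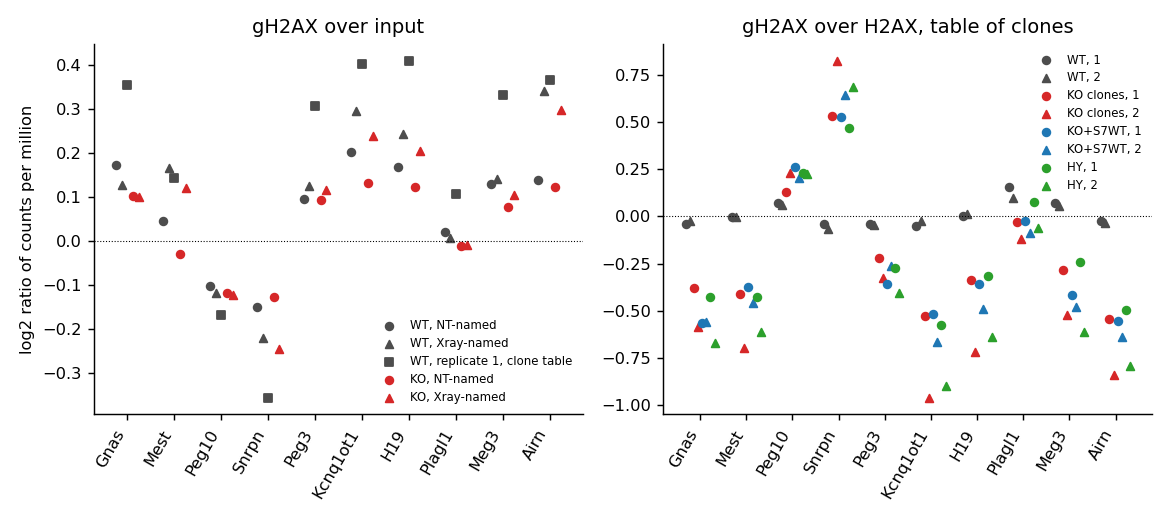
Log2 ratio of CPM (vertical axes) in each member bin: gH2AX over input in WT and KO libraries (left) and gH2AX over H2AX in WT and the 3 kinds of clone (right), 1 point per library, with numbers 1 and 2 for the replicates. On the left Snrpn and Peg10 lie below 0 in every library, and on the right Snrpn lies at 0.47 to 0.82 in clones and near 0 in WT.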

How the data were processed

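The values are unscaled read counts for bins of 1000000 bp, in 2 tables that the authors deposited, with all reads and reads of genome1, genome2 and neither. The submitters' processing notes name the build mm10, the aligner Bowtie2 2.2.9 and the trimmer Trimmomatic 0.36, besides other tools. How reads were given to a parental genome is not given in the sources used here, and mapping that favours one genome would move a ratio in input and ChIP alike. Columns were matched by name, and 42 were used. WT columns of the table of clones matched single samples, and the other totals used matched a group only. Parental columns were used only where the name matched a single labelled sample. The other 102 columns, among them parental columns of KO cells and clones and inputs named for clones, were not used here. In each assay, WT replicate 2 of the table of clones held the same counts as the WT library with the NT name at all 2645 bins. WT replicate 1 and the Xray-named WT library differed from it and from each other. The tables thus hold more distinct WT libraries per assay than there are labelled WT samples. Nothing says that WT or KO replicates were separate cultures, so p-values there cover a spread that may be technical.

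Bins with a mean count of at least 100 were tested with edgeR 4.0.16 (quasi-likelihood, Benjamini-Hochberg over all bins tested, threshold 0.05) in R 4.3.3, and DESeq2 1.42.0 was an alternative. Totals were scaled by TMM and fitted by group within one table, WT and KO apart from clones. Within each such fit, the spread of a bin was shared by all its assays and groups. Parental counts were fitted with a term for each library and a genome term for each assay. Libraries held 170013624 to 268180310 reads (WT and KO) and 70349148 to 155364952 (clones). Intervals were not drawn from counts, and counting errors cover sampling of reads only. The fits were also run on simulated counts with known changes, drawn independently for each column, and that outcome is not given here. Members of the list and the further imprinted genes were chosen with earlier results of these data known. The 10 members are named throughout, and other genes by their place in the same bin or as the extreme of their list.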

Additional observations from a re-analysis of the deposited data

How the results depend on the processing

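Counts of bins called, beside the value reported, depended on the setting as follows, and the cause was not tested. With a replicate block (the number or NT and Xray name as a term), KO minus WT relative to input went from 1 to 346 bins in gH2AX and from 0 to 275 in H2AX, HY minus KO clones from 1 to 436, and KO+S7WT minus KO from 1 to 0. No member passed in these except Meg3 in HY minus KO (0.37, adjusted p 0.0283, range over alternatives 0.0283 to 0.913). HY and KO clones are different clones, so there the block ties them by replicate number alone. With the block, KO minus WT passed for H19 in gH2AX and H2AX (adjusted p 0.00794 and 0.00845), Kcnq1ot1 in both (0.0467 and 0.0211) and Snrpn in gH2AX and input (0.0292 and 0.0133), and Gnas did not pass in either ChIP (0.0823 and 0.0511). The block also ended the calls over input of Mest in WT (0.038, adjusted p 0.0541) and Gnas in KO (0.11, 0.109). In KO minus WT input, Meg3 passed with the block (0.00675), DESeq2 (0.00749), autosomal totals (0.0205) and the groups alone (0.000495), and with the last also Gnas (0.00952) and Snrpn (0.00762). The difference between the 2 libraries of a group, taken over bins, correlated between KO and WT at 0.96 (gH2AX), 0.68 (H2AX) and 0.49 (input). Between KO clones with and without SIRT7-WT it correlated at 0.85 (gH2AX) and 0.94 (H2AX), where number and clone are not tied by name. Between HY and KO clones the values were 0.37 (gH2AX) and 0.14 (H2AX). For parental ratios in WT, the difference between replicates correlated at 0.077 (gH2AX and input), -0.029 (H2AX and input) and 0.042 (gH2AX and H2AX). Only 2 pairs exist. The block left 62, 182 and 106 parental calls. With DESeq2 the gH2AX, H2AX and HY counts were 6, 12 and 133, and with autosomal totals the gH2AX count was 4. With the compared groups fitted alone, the counts were 0 (gH2AX relative to input), 45 (H2AX relative to input), 919 against 1553 (gH2AX, KO minus WT), 917 against 1589 (gH2AX minus input in KO), and 0 for both clone comparisons of gH2AX. Leaving out 1 library, where the lone sample left was assumed to vary like the others, gave 0 to 4 (gH2AX relative to input), 715 to 1856 (gH2AX minus input in KO), 0 to 1 (KO+S7WT minus KO), 0 to 66 (HY minus KO, 66 without HY replicate 2), 0 to 1 and 0 to 3 for these relative to H2AX, and 33 to 76, 91 to 232 and 44 to 134 for the parental comparisons of gH2AX with input, H2AX with input and gH2AX with H2AX. No member value changed sign past the threshold.

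A bin of 1000000 bp averages over an imprinted cluster and its surroundings, so a difference limited to a control region would be diluted. With 2 libraries per group, a call often turned on 1 of them.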

Other observations

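The Gnas bin lay at the edge of a step in the input ratio of chromosome 2. The 3 bins before it held log2 ratios of 0.57, 0.59 and 0.58, and the 3 after it 0.050, -0.78 and -0.68. On chromosome 12, the 3 bins after Meg3 stood at 0.20, 0.61 and 0.57, against 0.010 in the bin just before it. The share of input reads given to a parental genome was highest among the members at Plagl1, 70.1% and 75.2% in the 2 replicates, and lowest at Snrpn.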
